A study of Mus musculus with 6 samples.

Results

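The BCL2 family decides at the mitochondrion whether a cell lives or dies, and RNA of 10 of its genes was followed here in bone marrow (BM) cells of a JAK3-driven mouse leukemia model with and without Phf6. The 10 genes were chosen by symbol from a table of 54532 genes. The rule held no measured value, but earlier results of these data were known when the genes were chosen. They are the anti-apoptotic genes Bcl2, Bcl2l1, Mcl1, Bcl2a1b and Bcl2a1d, the effectors Bax and Bak1, and the BH3-only genes Bcl2l11, Bbc3 and Pmaip1. All 10 symbols occurred once in the table, and 9 of the 10 genes passed the filter on low values and were tested.

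The donors were male mice with a floxed Phf6 allele (Phf6 fl/y), and the libraries were labelled Phf6 WT or Phf6 KO. The WT-labelled group (Phf6 WT + JAK3 M511I) carried the floxed allele without Cre. The KO-labelled group (VC Phf6 + JAK3 M511I) carried it together with Vav1-Cre, whose promoter is active across blood cells. In both groups, lineage-negative BM cells were transduced with a retrovirus that expresses JAK3 M511I, an activated Janus kinase, together with GFP, and were transplanted into lethally irradiated male C57BL/6 recipients. BM was taken at day 100 after transplantation, and 3 libraries per group were sequenced, named WT 1 to WT 3 for the WT label and KO 1 to KO 3 for the KO label. In the labels, the last digit of the targeted gene's symbol rises from sample to sample within a group, and the genotype was read as Phf6 throughout, the gene that the design text names. Nothing in the labels says whether GFP+ cells were sorted before RNA extraction or whether blood cells of the host remained, so each library is taken as bulk BM. The libraries are labelled as separate samples, and p-values measure the spread between them.

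Anti-apoptotic BCL2 proteins hold the outer mitochondrial membrane intact by binding the effectors BAX and BAK and the BH3-only proteins. BH3-only proteins carry stress signals: PUMA (Bbc3) and NOXA (Pmaip1) are known targets of p53, and BIM (Bcl2l11) is raised when cytokine signals are withdrawn. When they outweigh the anti-apoptotic proteins, BAX and BAK open the membrane, cytochrome c leaves and caspases are activated. In developing T cells, BCL2, BCL-XL (Bcl2l1) and MCL1 are needed at different stages, and cytokine receptors that signal through JAK3 and STAT5 are known to sustain BCL2. NOXA binds MCL1 and A1 rather than BCL2, and A1, the product of the Bcl2a1 genes, is known from neutrophils and activated lymphocytes.

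The Bcl2a1 genes are near-identical copies on chromosome 9, and their sequence bears on how far their reads can be told apart. The coding sequences of Bcl2a1b and Bcl2a1d are each 516 bases long, and bases 95 to 311 of them are the same 217 letters in Bcl2a1b, Bcl2a1d and their copy Bcl2a1a. This stretch, read from the GENCODE M21 transcripts (GRCm38), is shown because a read that lies inside it belongs to no single copy.
Bcl2a1 shared: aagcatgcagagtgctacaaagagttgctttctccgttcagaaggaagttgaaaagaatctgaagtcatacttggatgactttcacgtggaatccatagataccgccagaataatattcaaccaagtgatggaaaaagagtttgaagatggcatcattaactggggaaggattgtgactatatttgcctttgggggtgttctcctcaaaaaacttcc
Over the longest coding transcripts, Bcl2a1b and Bcl2a1d were identical at 93.9% of aligned positions, and Bcl2a1a and Bcl2a1b at 97.9%. Of all stretches of 150 bases, the length of a sequencing read, 41.9% in Bcl2a1b and 30.3% in Bcl2a1d also occurred in another gene. For the other members this share was between 0% and 6.26%. Gm29094, a gene on the same strand, shares 401 bases of exon with Bcl2a1b. It had 1 read in WT 1 and none in the other libraries. How the authors counted reads that match several genes is not given in the sources used here. The split between the Bcl2a1 copies and Gm29094 is therefore uncertain.

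For the members' promoters, the 250 bases before the annotated start of transcription were read from RefSeq (GRCm38.p6), where 9 of the 10 members had an entry, with 14 windows in all. Pmaip1 had no entry, so its promoter was not searched for any motif. Bcl2 and Mcl1 are the 2 anti-apoptotic genes that were called lower in KO, though not under every processing tried. Their windows are shown with capitals that mark the GC box (GGGCGG or its complement), a motif bound by SP1-type factors. Bcl2 lies on the minus strand at chr1:106714291-106714540 and Mcl1 on the plus strand at chr3:95658471-95658720.
Bcl2: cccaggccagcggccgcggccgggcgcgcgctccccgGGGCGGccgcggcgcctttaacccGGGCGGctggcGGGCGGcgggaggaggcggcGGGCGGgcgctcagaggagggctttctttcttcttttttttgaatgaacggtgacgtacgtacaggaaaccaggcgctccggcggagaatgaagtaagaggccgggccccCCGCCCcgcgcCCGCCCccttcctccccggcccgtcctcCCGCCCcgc
Mcl1: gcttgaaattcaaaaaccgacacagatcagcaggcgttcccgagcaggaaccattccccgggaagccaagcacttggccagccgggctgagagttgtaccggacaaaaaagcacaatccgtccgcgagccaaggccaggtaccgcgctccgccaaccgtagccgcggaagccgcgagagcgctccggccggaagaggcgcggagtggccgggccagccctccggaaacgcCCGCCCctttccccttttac
The Bcl2 window held 7 GC boxes and the Mcl1 window 1. GC boxes stood in 10 of the members' 14 windows, some of which overlap, and in 32.7% of the 32851 windows of all genes. Windows of members that did not pass held them too, with 3 in 1 window of Bcl2l11 and 7 in 1 of Bbc3. For Bax, on the minus strand at chr7:45466899-45467148, capitals mark a p53 half-site, the motif that p53 binds in pairs. For Bcl2l11, on the plus strand at chr2:128125788-128126037, capitals mark a FOXO motif (TGTTTAC or its complement), the motif of the factors that are freed when growth signals stop.
Bax: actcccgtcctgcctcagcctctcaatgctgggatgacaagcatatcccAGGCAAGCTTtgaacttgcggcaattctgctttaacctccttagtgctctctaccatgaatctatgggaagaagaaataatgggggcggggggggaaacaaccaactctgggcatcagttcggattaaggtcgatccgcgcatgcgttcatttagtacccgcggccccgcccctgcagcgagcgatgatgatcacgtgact
Bcl2l11: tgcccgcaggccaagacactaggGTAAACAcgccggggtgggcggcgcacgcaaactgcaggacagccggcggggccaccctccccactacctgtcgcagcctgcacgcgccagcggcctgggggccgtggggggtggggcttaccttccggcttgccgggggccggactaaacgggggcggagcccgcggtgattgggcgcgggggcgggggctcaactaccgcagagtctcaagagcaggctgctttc
A p53 half-site stood in 1 of the 14 windows, against 7.13% of all windows. A FOXO motif stood in 2, of Bcl2l11 and of Bbc3, against 3.17%. An NF-kappaB motif stood in 2, of Bcl2l1 and of Bbc3, against 7.25%. The STAT motif TTCNNNGAA stood in 0 of the 14, against 7.02%. Both strands were searched and matches may overlap. A match describes the letters of the window and is not a measured binding site, and a window without a match says nothing about the factor.

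The libraries held between 13015823 and 18235095 reads, recovered from the deposited FPKM (fragments per kilobase of gene and per unit of library size). WT 2 stood apart, with 17.1% of its reads in genes under 1000 bases (3.11% to 5.01% elsewhere) and 6.74% in genes from 8000 bases upward (22.9% to 26.5% elsewhere). Results that rest on WT 2 are therefore given with and without it where both were computed. RNA of the targeted gene did not separate the groups: Phf6 reached 7.47, 3.67 and 8.02 FPKM in WT 1 to WT 3, against 6.73, 5.5 and 5.11 in KO 1 to KO 3 (limma, adjusted p = 0.893), and a deletion of only some exons need not lower a value per gene. The directions below rest on the labels.

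Markers of cell types differed between the groups as well, so the summed FPKM of marker lists is given. Neutrophil markers, 12 of 12 of which fell in KO, summed to 33830, 95431 and 6855 in WT 1 to WT 3 and to between 93.7 and 290 in KO. Monocyte and macrophage markers, of which 6 of 7 tested fell, summed to between 607 and 5085 in WT and to between 11.8 and 28.3 in KO. Both myeloid lists thus lay far higher in every WT library than in any KO library. Markers of effector T and NK cells, of which 9 of 10 fell and Gzma rose, summed to between 1966 and 5408 in WT and to between 589 and 664 in KO. Markers of immature T cells went the other way: 8 of 8 rose, with sums of 9.56 to 45.3 in WT and of 1018 to 1212 in KO, and Ptcra, part of the pre-T-cell receptor, was at 0 in all 3 WT libraries. Pan-T markers, of which 1 of 8 rose, summed to between 517 and 1262 in WT and to between 870 and 972 in KO. B-cell markers summed to 11.7, 1051 and 17.9 in WT 1 to WT 3 and to at most 2.73 in KO. Erythroid markers summed to 100, 39102 and 344 in WT 1 to WT 3 and to between 68.9 and 127 in KO, so both lists were high in WT 2 alone, and the 4 B-cell markers and 5 of the 6 erythroid markers tested did not pass. Some markers passed the filter on low values only through the group in which they were high, so they had to differ. Defining markers of neutrophils, an abundant cell type of normal BM, were thus low in the KO-labelled libraries. In bulk RNA, fewer cells of a type and less RNA per cell cannot be told apart, and this holds for every member below. The part that these cell types had in the members' values was not tested.

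Of the 9 members tested, 3 were lower in KO than in WT (Bcl2, Mcl1 and Pmaip1), none was higher, and 6 did not pass (limma, adjusted p under 0.05 over 13393 genes). Voom on the recovered reads called 2 members lower (Bcl2a1d and Pmaip1) and 0 higher, beside 3338 of the 13393 genes. By limma 26.4% of all genes tested passed, 13.1% higher and 13.3% lower. Of these calls 49.6% were higher, against 67.8% after rescaling to TPM and 60.2% by voom. Without WT 2, 5 of the 9 members were called, beside 6967 of the 13393 genes. Without KO 1 or KO 2 only Pmaip1 was, beside 2071 and 1934 of the 13393 genes. The median log2 fold change of the 9 members was -0.90, against 0.086 over all genes. Bcl2a1d and Pmaip1 passed the filter on low values only through the WT libraries, so they had to be lower in KO, and the median of the other 7 was -0.54. Within the members, 5 of 9 had groups that did not overlap, close to the 49.1% of all genes tested.

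**Figure D1:**
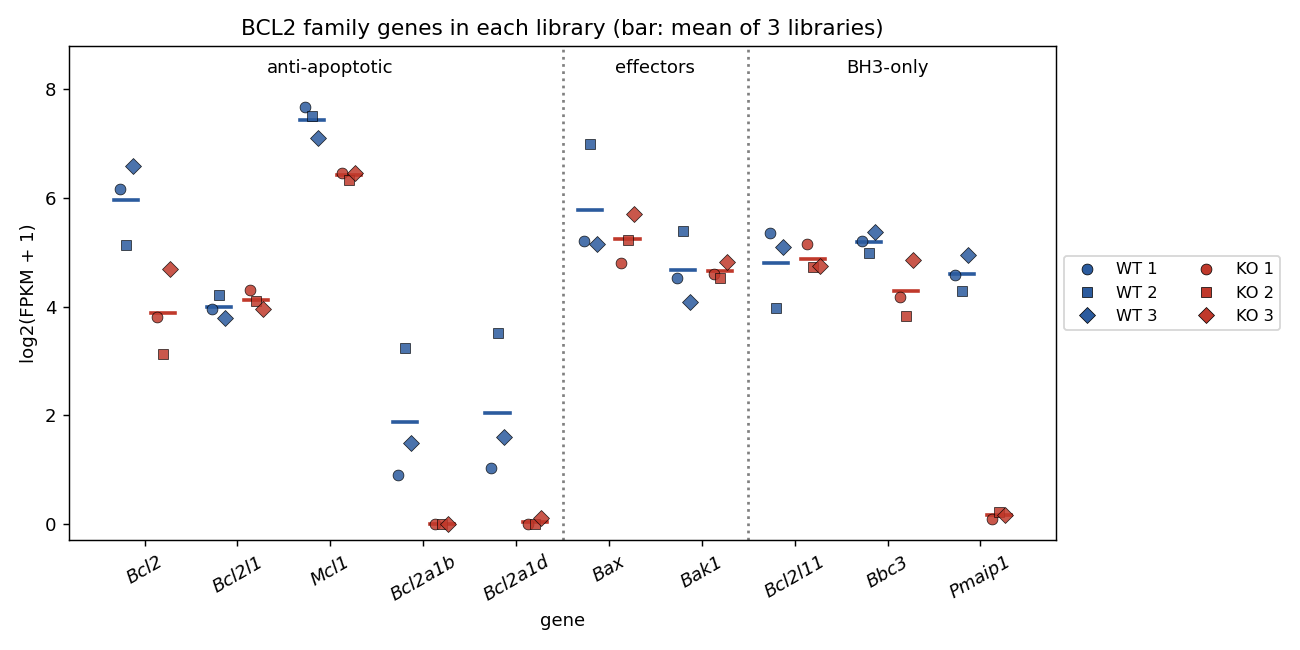
Level of the 10 BCL2 family genes on the log2(FPKM + 1) scale in each of the 6 libraries. Blue symbols are WT-labelled and red symbols KO-labelled libraries, and bars are means of 3 libraries. Bcl2, Mcl1, both Bcl2a1 copies, Bbc3 and Pmaip1 separate the groups, while Bcl2l1, Bax, Bak1 and Bcl2l11 overlap.

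Among the anti-apoptotic genes, Bcl2 and Mcl1 were called lower in KO, though not in every alternative, and Bcl2l1 overlapped between the groups. Bcl2 (ENSMUSG00000057329, chromosome 1, minus strand, 106538178 to 106714274 in GRCm38), the founding anti-apoptotic gene, reached 70.8, 33.9 and 95.2 FPKM in WT 1 to WT 3, against 13, 7.79 and 24.9 in KO 1 to KO 3. The lowest WT library lay above the highest KO library, and WT 2 was the lowest of its group. The mean was 66.6 ± 30.8 (SD, n = 3) in WT and 15.2 ± 8.79 (SD, n = 3) in KO, 4.37-fold higher in WT. On the log2(FPKM + 1) scale KO differed from WT by -2.08, with an error (SE) of 0.53 and a 95% interval from -3.36 to -0.80 (limma, adjusted p = 0.0303). It stayed below 0 in 18 of 18 alternatives and passed the threshold in 10 of them. Without WT 1, WT 3, KO 1 or KO 2 it was -1.98, -1.77, -2.04 and -1.71 and did not pass, and after rescaling to TPM, which gives each library the same sum, it was -1.31 (limma, adjusted p = 0.269). By voom it was -1.76 (adjusted p = 0.105), and it also missed the threshold after quantile normalization (limma, adjusted p = 0.0520) and without the filter on low values (limma, adjusted p = 0.0590).

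An antisense gene, D630008O14Rik, shares 558 bases of exon with Bcl2, and reads of the pair cannot be told apart without strand. It had 87, 1 and 55 reads in WT 1 to WT 3 and 7, 1 and 10 in KO 1 to KO 3, beside 3651 to 13506 reads of Bcl2 in WT and 1123 to 3676 in KO.

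Mcl1 (ENSMUSG00000038612, chromosome 3, plus strand, 95658788 to 95663176) encodes a short-lived protein on which many blood cells depend, and it was the most abundant member in every library. It reached 204, 181 and 136 FPKM in WT 1 to WT 3, against 86.8, 79.8 and 86.7 in KO 1 to KO 3. The groups did not overlap, and the KO libraries lay within a narrow range. The mean was 174 ± 34.7 (SD, n = 3) in WT and 84.4 ± 4.02 (SD, n = 3) in KO, 2.06-fold higher in WT. Its difference on the log2 scale was -1.01, with an SE of 0.29 and a 95% interval from -1.70 to -0.32 (limma, adjusted p = 0.0436). This call was close to the threshold and passed in 8 of 18 alternatives, with all 18 values below 0. It did not pass with the replicate number as a block (limma, adjusted p = 0.139) nor without WT 1, KO 1, KO 2 or KO 3, where the value lay between -1.03 and -0.89.

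The size of the difference in Mcl1 also depended on how the libraries were scaled. The value was -0.18 after rescaling to TPM (limma, adjusted p = 0.761), -0.29 after quantile normalization (limma, adjusted p = 0.561) and -0.61 by voom (adjusted p = 0.211). Rescaling to TPM moved the median of all genes from 0.086 to 0.86, voom to 0.56 and quantile normalization to 0.15. Relative to these medians, Mcl1 stood at -1.10 as deposited, -1.04 in TPM, -1.17 by voom and -0.44 after quantile normalization. Bcl2 stood at -2.17, -2.17, -2.32 and -2.08 in the same order. TPM and voom multiply each library by a single factor, so for such well-read genes the likeness of these values follows nearly by construction. Quantile normalization is not of this kind, and there Mcl1 stood closest to the median.

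Bcl2l1 (ENSMUSG00000007659, chromosome 2, minus strand, 152780668 to 152831728), which encodes BCL-XL, reached 14.5, 17.5 and 12.9 FPKM in WT 1 to WT 3, against 18.8, 16.3 and 14.5 in KO 1 to KO 3. The groups overlapped, with means of 15.0 ± 2.34 (SD, n = 3) in WT and 16.5 ± 2.13 (SD, n = 3) in KO. The log2 fold change was 0.14 with a 95% interval from -0.43 to 0.70 (limma, adjusted p = 0.718). It did not pass in any of 18 alternatives, in which it ranged from 0.041 to 0.96.

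The A1 genes were read in WT and almost absent from KO. Bcl2a1b (ENSMUSG00000089929, chromosome 9, plus strand, 89199209 to 89207827) was at an FPKM of 0.872, 8.43 and 1.82 in WT 1 to WT 3, from 11, 81 and 23 reads, and no read in any KO library. It did not pass the filter and was not tested. Against a floor of 3 reads per library, its mean in WT was at least 16.9-fold higher than in KO. This value rests mostly on WT 2, with 81 of the 115 reads in WT, and was not computed without WT 2. Bcl2a1d (ENSMUSG00000099974, chromosome 9, minus strand, 88723285 to 88731914) was at an FPKM of 1.05, 10.4 and 2.02 in WT 1 to WT 3, from 14, 106 and 27 reads. In KO 1 and KO 2 it had no read, and in KO 3 it had 1 read, an FPKM of 0.0720. The ratio of summed reads, WT over KO, was 174 with a 95% interval from 30.7 to 6910.5, which covers counting error only. WT 2 held 106 of the 147 reads in WT, and this ratio was not computed without it either.

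Bcl2a1d missed the threshold (limma, log2 fold change -2.02, SE 0.61, adjusted p = 0.0538), with a wide spread among WT libraries. Without WT 2, which held the most reads of both copies, its value was -1.28 and passed (limma, adjusted p = 0.00429), and it passed in 8 of the 17 alternatives in which it was tested. Bcl2a1d passed the filter on low values only through the WT libraries, so its direction was given in advance. Of the other copies, Bcl2a1a had 9 reads over the WT libraries and 1 over the KO libraries, and Bcl2a1c had none. At 817 and 863 bases both copies belong to the short genes, in which WT 2 held its large share of reads, and the part of gene length in their values was not tested.

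**Figure D2:**
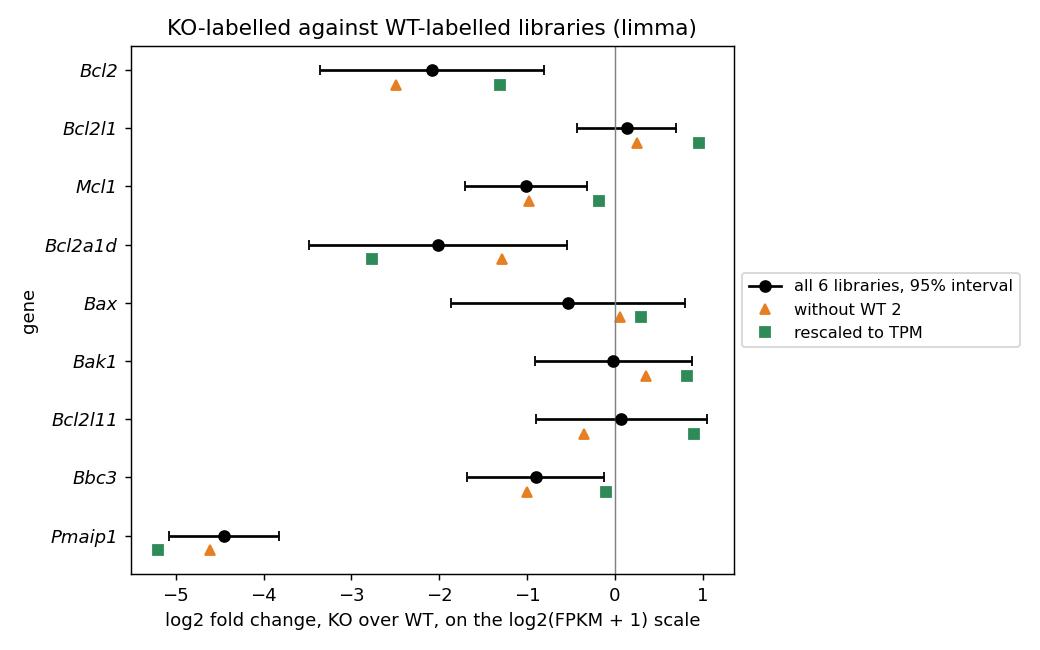
Log2 fold change (KO over WT, log2(FPKM + 1) scale) of the 9 members tested. Black points and bars are the limma estimate and 95% interval from all 6 libraries, triangles the estimate without WT 2, and squares the estimate after rescaling to TPM. Pmaip1 lies furthest from 0 at -4.45, and rescaling to TPM moved each member except Bcl2a1d and Pmaip1 toward higher values.

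The effectors did not pass in either direction. Bax (ENSMUSG00000003873, chromosome 7, minus strand, 45461697 to 45466898), a p53 target whose product opens the outer membrane, reached 36.2, 126 and 34.5 FPKM in WT 1 to WT 3, against 27, 36.5 and 51.0 in KO 1 to KO 3. Apart from WT 2, the WT libraries lay within the KO range. The log2 fold change was -0.54 with a 95% interval from -1.87 to 0.79 (limma, adjusted p = 0.529), and it turned to 0.063 without WT 2, to 0.049 with array weights and to 0.29 in TPM, none of which passed. The gene is 1576 bases long, and WT 2 held the largest share of reads in short genes of the 6 libraries. The part of gene length in the value of Bax was not tested beyond the fit with the length trend removed, in which Bax did not pass either. Gm45808, on the same strand, shares 192 bases of exon with Bax and had no read in any library.

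Bak1 (ENSMUSG00000057789, chromosome 17, minus strand, 27019810 to 27029009), the other effector, reached 22.1, 41.2 and 15.9 FPKM in WT 1 to WT 3, against 23.4, 22.2 and 27.1 in KO 1 to KO 3. Again WT 2 was the highest, and the groups overlapped. The log2 fold change was -0.017 with a 95% interval from -0.91 to 0.87 (limma, adjusted p = 0.979). It lay above 0 in 8 and below 0 in 10 of 18 alternatives and passed in none of them, so it had no stable direction. Ggnbp1, on the opposite strand, shares 437 bases and another 177 bases of exon with Bak1 and had 64 to 118 reads in each library, against 594 to 1167 of Bak1.

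The BH3-only genes did not move alike. Pmaip1 was nearly absent from KO, Bbc3 missed the threshold although its groups did not overlap, and Bcl2l11 overlapped between the groups. Pmaip1 (ENSMUSG00000024521, on chromosome 18), which encodes NOXA, reached 22.9, 18.5 and 30.1 FPKM in WT 1 to WT 3, against 0.0609, 0.168 and 0.117 in KO 1 to KO 3. These values rest on 934, 577 and 1233 reads in WT and on 3, 7 and 5 reads in KO. The groups lay far apart, and no library of either group departed from its fellows by a comparable margin. The ratio of summed reads, WT over KO, was 216 with a 95% interval from 131 to 387 for counting error.

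On the log2(FPKM + 1) scale, which understates the change of so low a value, Pmaip1 differed by -4.45, with an SE of 0.26 and a 95% interval from -5.07 to -3.83 (limma, adjusted p = 0.000271). It was the only member that passed in 18 of 18 alternatives, with values from -7.23 to -4.28. Pmaip1 passed the filter on low values only through the WT libraries, so it had to be lower in KO. Without WT 2 the call was kept as well.

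Bbc3 (ENSMUSG00000002083, chromosome 7, plus strand, 16308393 to 16318205), which encodes PUMA, reached 35.9, 30.6 and 40.5 FPKM in WT 1 to WT 3, against 17.1, 13.2 and 28.0 in KO 1 to KO 3. The groups did not overlap, though WT 2 and KO 3 lay close together. The means were 35.6 ± 4.94 (SD, n = 3) in WT and 19.4 ± 7.69 (SD, n = 3) in KO. The log2 fold change was -0.90 (SE 0.32, limma, adjusted p = 0.0901) and did not pass. It passed without WT 2 (-1.0, limma, adjusted p = 0.0351) and with array weights (-1.01, limma, adjusted p = 0.00856), which gave WT 2 a weight of 0.0509, and its 18 alternatives all lay below 0.

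Bcl2l11 (ENSMUSG00000027381, chromosome 2, plus strand, 128126038 to 128162547), which encodes BIM, reached 39.8, 14.6 and 33.4 FPKM in WT 1 to WT 3, against 34.4, 25.7 and 25.9 in KO 1 to KO 3. The groups overlapped, and the lowest value of all belonged to WT 2. Its log2 fold change was 0.072 with a 95% interval from -0.90 to 1.04 (limma, adjusted p = 0.917). It turned to -0.35 without WT 2 and to -0.47 with array weights, where it passed as lower (limma, adjusted p = 0.0293). With 8029 bases Bcl2l11 is among the long genes, in which WT 2 held few reads, and it lay above 0 in 14 and below 0 in 4 of 18 alternatives.

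**Figure D3:**
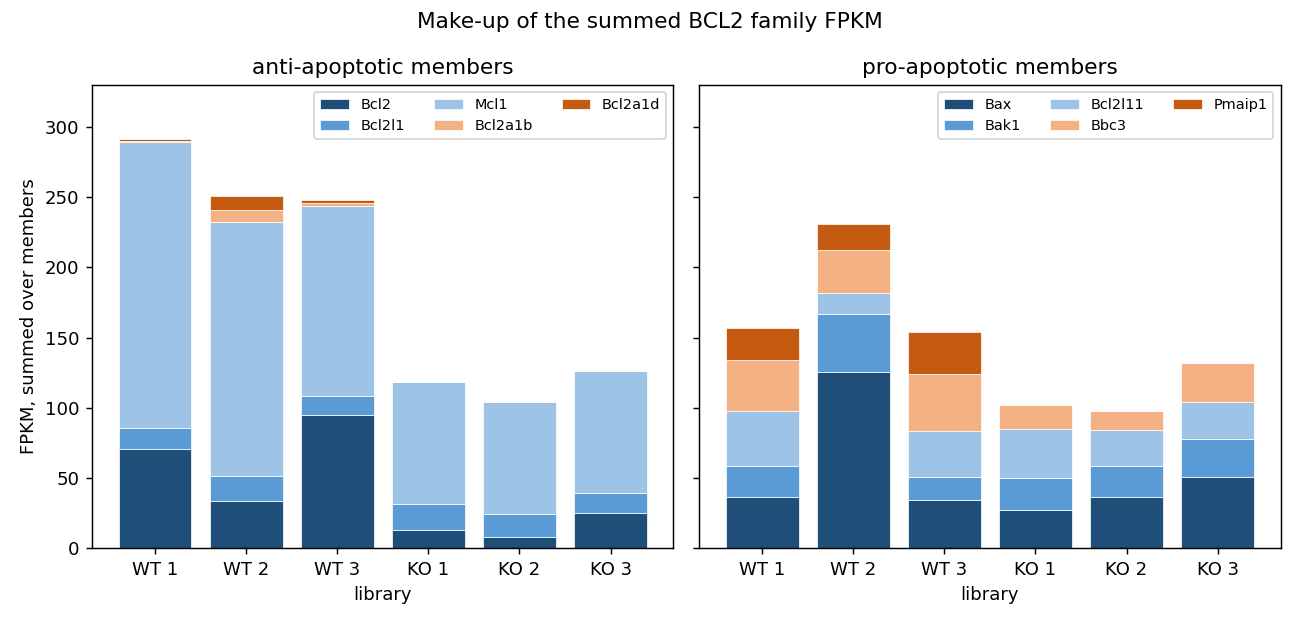
Summed FPKM of the anti-apoptotic members (left) and the pro-apoptotic members (right) in each library, with each gene's part as a stacked segment. The anti-apoptotic sum was at least 248 in WT and at most 126 in KO, and the Pmaip1 segment is not visible in KO.

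Summed over the 5 anti-apoptotic genes, the FPKM was 291, 251 and 248 in WT 1 to WT 3 and 119, 104 and 126 in KO 1 to KO 3, so the groups did not overlap. Summed over the 5 pro-apoptotic genes, it was 157, 231 and 154 in WT and 102, 97.7 and 132 in KO, which did not overlap either. The FPKM of both sides was thus lower in KO as deposited, and no p-value is given for these sums. In TPM the groups overlapped on both sides through WT 2, whose anti-apoptotic sum was 280 TPM against 883 and 810 in WT 1 and WT 3 and 414 to 492 in KO, and the pro-apoptotic sums overlapped also without it. Mcl1 held most of the anti-apoptotic sum, with 70.1%, 72.0% and 54.8% in WT 1 to WT 3 and 73.2%, 76.8% and 68.7% in KO 1 to KO 3. Bcl2l1 held 4.97% to 6.98% in WT and 11.5% to 15.8% in KO, without overlap. A share also depends on the other members of its sum, and by FPKM alone Bcl2l1 overlapped between the groups. Bcl2 held 13.5% to 38.4% in WT and 7.50% to 19.8% in KO, where the groups overlapped through WT 2.

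On the pro-apoptotic side, the share of Pmaip1 went from 8.04% to 19.5% in WT to between 0.060% and 0.172% in KO. Bak1 held 10.3% to 17.9% in WT and 20.5% to 23.0% in KO, without overlap. By FPKM alone Bak1 overlapped between the groups, and its share also depends on the other members, such as Pmaip1. The shares of Bax, Bcl2l11 and Bbc3 overlapped between the groups: Bax held between 22.3% and 54.5%, Bcl2l11 between 6.34% and 33.8%, and Bbc3 between 13.3% and 26.2% over the 6 libraries.

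Ratios between genes of the same library do not depend on how that library was scaled, and they were used to set pro- against anti-apoptotic members. The summed anti-apoptotic over the summed pro-apoptotic FPKM was 1.86, 1.09 and 1.61 in WT 1, WT 2 and WT 3 and 1.16, 1.06 and 0.955 in KO 1, KO 2 and KO 3. On the log2 scale the mean was 0.57 ± 0.40 (SD, n = 3) in WT and 0.080 ± 0.14 (SD, n = 3) in KO, a difference of -0.49. The groups overlapped through WT 2 alone, and the difference was -0.71 without it and -0.32 without WT 1. It was -0.44 without the Bcl2a1 copies and -0.20 as a difference of mean log2 values, in which each gene counts alike.

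**Figure D4:**
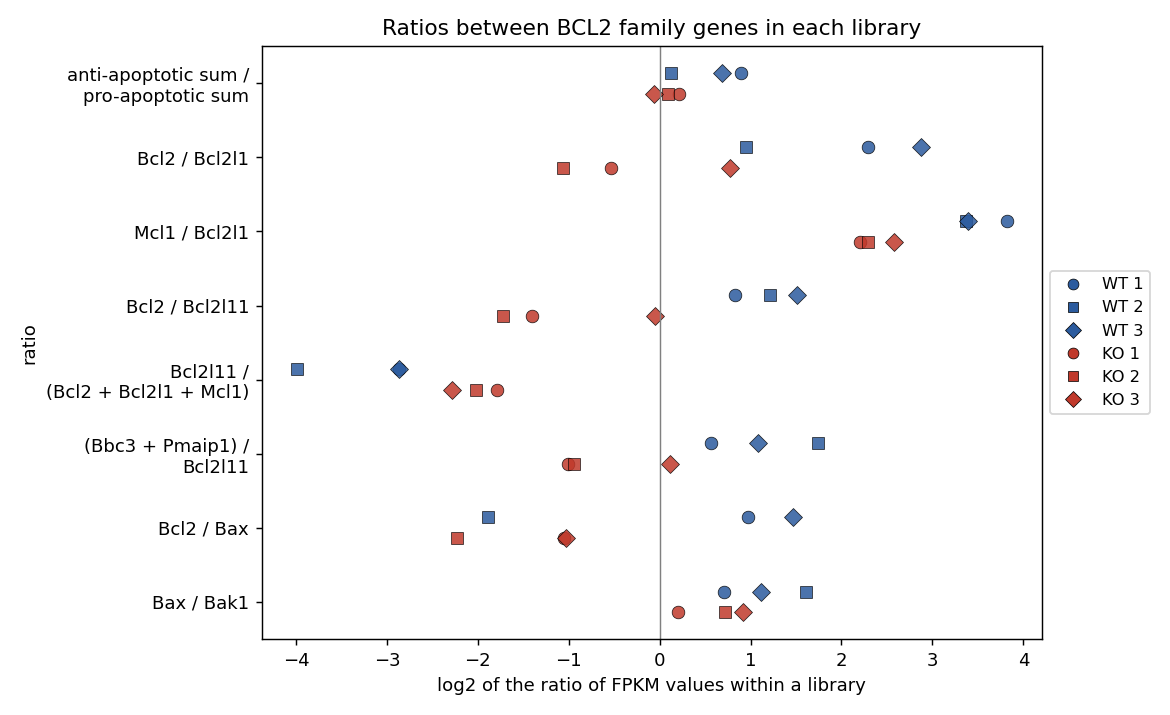
Log2 ratio of FPKM between BCL2 family genes within each library, blue for WT-labelled and red for KO-labelled libraries. Bcl2 and Mcl1 over Bcl2l1, Bcl2 over Bcl2l11, Bcl2l11 over the main anti-apoptotic genes, and Bbc3 plus Pmaip1 over Bcl2l11 separate the groups, and the sum ratio, Bcl2 over Bax and Bax over Bak1 overlap.

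The anti-apoptotic sum over the effectors, and over the BH3-only genes, also overlapped between the groups. Several single pairs separated the groups where the ratio of the sums did not. The separating ratios here and below set Bcl2, Mcl1, or Bbc3 with Pmaip1 against Bcl2l1 or Bcl2l11. By FPKM alone the former genes did not overlap and the latter did, so these ratios largely restate the single genes. How often ratios of other genes separate the groups was not tested. Bcl2 over Bcl2l1 was 4.89, 1.93 and 7.36 in WT 1 to WT 3 and 0.692, 0.479 and 1.72 in KO 1 to KO 3, so that Bcl2 exceeded Bcl2l1 in all WT libraries and in KO 3 alone among the KO libraries. Mcl1 over Bcl2l1 was 14.1, 10.3 and 10.5 in WT and 4.62, 4.91 and 5.97 in KO, without overlap. Bcl2 over Mcl1 was 0.347, 0.188 and 0.700 in WT and 0.150, 0.0976 and 0.288 in KO, and the groups overlapped.

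Bcl2l11 encodes a protein that binds all the main anti-apoptotic proteins, so it was set against the sum of Bcl2, Bcl2l1 and Mcl1. This ratio was 0.137, 0.0631 and 0.137 in WT 1 to WT 3 and 0.290, 0.247 and 0.206 in KO 1 to KO 3, higher in every KO library. Bcl2 over Bcl2l11 was 1.78, 2.32 and 2.85 in WT and 0.377, 0.303 and 0.962 in KO, so Bcl2 exceeded Bcl2l11 in each WT library and in no KO library. Among the BH3-only genes, the known p53 targets Bbc3 and Pmaip1 over Bcl2l11 were at 1.48, 3.36 and 2.11 in WT and at 0.497, 0.519 and 1.08 in KO, without overlap.

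Ratios that include Bax were less clear. Bcl2 over Bax was 1.96, 0.270 and 2.76 in WT 1 to WT 3 and 0.482, 0.214 and 0.489 in KO 1 to KO 3, where WT 2 lay within the KO range. Bax over Bak1 was 1.64, 3.05 and 2.16 in WT and 1.15, 1.64 and 1.88 in KO and overlapped. These ratios are of RNA and say nothing of protein, which for MCL1 and NOXA is short-lived.

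The rest of the mitochondrial pathway was read from a list of 45 further genes, of which 44 had a single row and 34 were tested. Of these, 5 rose in KO, 2 fell and 27 did not pass, and 17 had groups that did not overlap, beside the shares of 26.4% and 49.1% over all genes. Their median log2 fold change was 0.18. Without WT 2 the count that passed was 17, beside 6967 of all 13393 genes. Without KO 2 or KO 3 it was 4 in each case, beside 1934 and 2021 of all genes. After rescaling to TPM 8 rose and 0 fell, beside 2279 higher and 1081 lower among all genes. By voom 7 rose and 1 fell, beside 2011 higher and 1327 lower among all genes. Bmf, Vdac1 and Stat5a passed in all 18 alternatives and Bcl2l14 in the 17 in which it was tested, whereas Rela passed in 14, Foxo1 in 11 and Btrc in 7, each with 1 direction throughout.

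Among the further BH3-only genes, Bmf, whose product responds to loss of attachment and of cytokines, rose in KO. It reached 2.87, 7.11 and 1.93 FPKM in WT 1 to WT 3, against 49.6, 25.7 and 23.4 in KO 1 to KO 3 (limma, log2 fold change 2.83, SE 0.48, adjusted p = 0.00672). It was thus above Pmaip1 in every KO library and below it in every WT library. Bad and Bid did not pass, and Bik and Hrk were under the filter. Of the further anti-apoptotic genes none was tested: Bcl2l2 was at an FPKM of 2.38, 0.610 and 2.15 in WT and of at most 0.185 in KO, and Bcl2l10 was at 0 in all libraries. The third effector gene, Bok, was above 0 in WT 2 alone.

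Of the 4 tested BCL2-like and BNIP genes, Bcl2l14 rose, from an FPKM of at most 0.104 in WT to 3.41, 2.50 and 4.72 in KO 1 to KO 3 (limma, log2 fold change 2.10, adjusted p = 0.00154). Bcl2l14 passed the filter on low values only through the KO libraries, so it had to be higher in KO. Downstream of the mitochondrion, 1 of 13 genes passed: Vdac1, which encodes a channel of the outer membrane, rose from 31.4, 28.0 and 27.5 in WT to 95.2, 99.0 and 112 in KO (limma, log2 fold change 1.78, adjusted p = 0.00254). Its relatives Vdac2 and Vdac3 did not pass, nor did Cycs, Apaf1 and Casp9, the genes of the apoptosome. Of the 4 genes that act on the turnover of MCL1 protein, Btrc, part of a ubiquitin ligase, rose by a log2 difference of 0.82 (limma, adjusted p = 0.0349).

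Transcription factors known to act on BCL2 family genes passed in 3 of 10 cases. Stat5a, which acts downstream of JAK3, rose from an FPKM of 7.96, 5.40 and 8.58 in WT 1 to WT 3 to 27.9, 22.9 and 31.1 in KO 1 to KO 3 (limma, log2 fold change 1.78, adjusted p = 0.00425). Rela, a subunit of NF-kappaB, fell from 52.2, 85.2 and 61.5 to 27, 19.2 and 25 (limma, log2 fold change -1.43, adjusted p = 0.0128). Foxo1 fell from 13.2, 9.20 and 13.3 to 6.16, 4.10 and 3.30 (limma, log2 fold change -1.24, adjusted p = 0.0236). Trp53, named after its value was seen because Bax, Bbc3 and Pmaip1 are p53 targets, reached 22.5, 23.4 and 29.1 FPKM in WT 1 to WT 3, against 26.3, 28.6 and 34.0 in KO 1 to KO 3 and did not pass (limma, log2 fold change 0.24, adjusted p = 0.517). Whether any of these factors acted on a member was not tested.

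**Figure D5:**
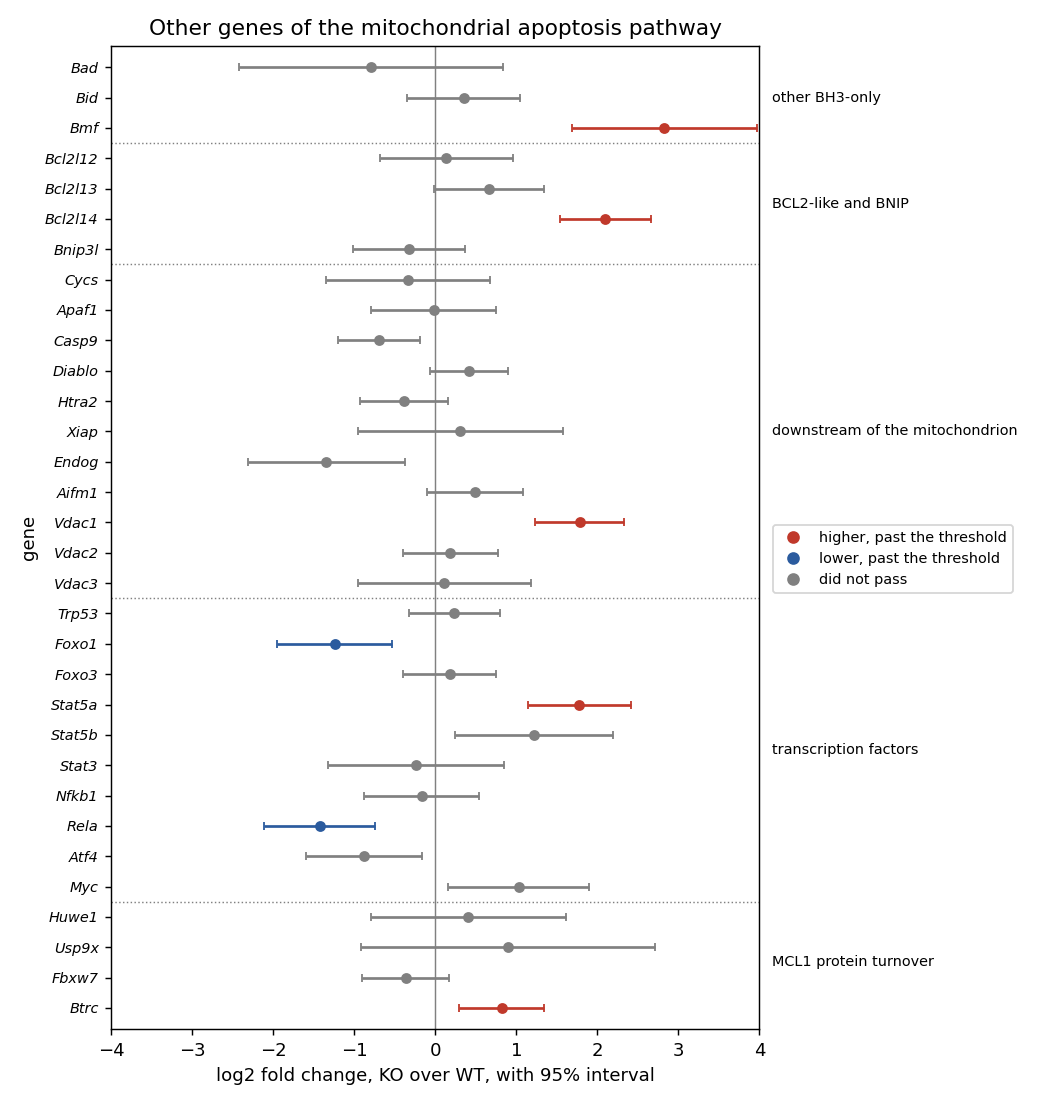
Log2 fold change (KO over WT, log2(FPKM + 1) scale, limma estimate and 95% interval) of 32 of the 34 further genes of the pathway that were tested, by role. Red marks the 5 genes that rose, blue the 2 that fell and grey 25 of those that did not pass.

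The genes whose values most resembled a member were found by Pearson's r of log2(FPKM + 1) over the 6 libraries, given as a description. For Bcl2 they were Jak3 (r = 0.992), Plekhn1 (r = 0.991) and Pacs2 (r = 0.991), and 58 protein-coding genes had r above 0.95. Jak3 reached 47.9, 30.8 and 53.8 FPKM in WT 1 to WT 3, against 18.2, 11.4 and 22.1 in KO 1 to KO 3. JAK3 is also what the retrovirus expresses, and whether reads of the vector were counted for Jak3 was not tested. For Mcl1 they were Entpd1, Sema6b and Galm (r = 0.998 each), among 520 genes above 0.95. For Bcl2l1 they were Cybc1 (r = 0.990), Ppp2r5c (r = 0.967) and Eif2ak1 (r = 0.962), among 4 genes above 0.95. For Bcl2l11 they were Dlg1 (r = 0.995), Dnajc5 (r = 0.993) and Slc28a2 (r = 0.990), among 197 genes, and WT 2 was the lowest library for all 3 of them as it was for Bcl2l11. The points share the 2 groups and the departure of WT 2.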

How the data were processed

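Total RNA of BM cells was extracted with Trizol, made into libraries with a NEBNext Ultra kit and sequenced as paired reads on a NovaSeq instrument. The submitters' processing notes name GRCm38 (mm10), HISAT2 2.0.5 and featureCounts 1.5.0-p3. The strand setting, the annotation release and the treatment of reads that match several genes are not given in the sources used here. The authors deposited FPKM per gene with gene lengths and coordinates, and the coordinates of 9 of the 10 members equal those of GENCODE M21. Multiplied by gene length, 100% of the values were whole multiples of the library's smallest step (tolerance 0.001), which gave the reads per gene. A gene without reads may have lain as high as 3 reads, or 0.161 to 0.255 RPM. Intervals and floors cover counting error only. The deposited FPKM carry a median-of-ratios scaling, since size factors computed from them were equal in all 6 libraries.

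The study used a test for counts. Since the values at hand are FPKM, log2(FPKM + 1) was compared here by limma 3.58.1 in R 4.3.3 (lmFit, then eBayes with a trend, two-sided, 3 against 3 libraries, no covariate) over the 13393 genes that reached 1 FPKM in 3 or more libraries, with Benjamini-Hochberg adjustment and a threshold of 0.05. For groups of this size the smallest exact permutation p is 0.1. The test was tested on simulated data before use. Sums, shares, ratios and correlations over members got no p-value. The alternatives were pseudocounts of 0.1 and 0.5, no filter, a minimum mean of 5 FPKM, TPM, quantile and median-of-ratios scaling, eBayes without trend, a block for the replicate number, array weights, voom on recovered reads and leaving out each library. Removal of the length trend was added after seeing the data.

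The members, lists and tests were chosen with earlier results of these data known. The genes named are the 10 members, in each further pathway list up to 3 genes past the threshold with the smallest p, the 3 protein-coding genes most correlated with Bcl2, Bcl2l1, Mcl1 and Bcl2l11, Phf6 and cell type markers, and any other was named after its values were seen. Of the pathway list, 1 symbol with 2 rows was left out. The values of 2 other genes of that list are not reported here. Other software was data.table (1.17.8), Matplotlib 3.10.9, SciPy 1.17.1, NumPy 2.4.6, pandas 2.3.3 and Python 3.11.15.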

Additional observations from a re-analysis of the deposited data

How the results depend on the processing

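Pmaip1 kept its direction and its call in 18 of 18 alternatives. Like Bcl2a1d, it passed the filter on low values only through the WT libraries, so its direction was given in advance. Bcl2, Mcl1 and Bbc3 kept their direction in 18 and Bcl2a1d in 17, on either side of the threshold, and Bcl2l1 and Bax did not pass in any. Bcl2l11 reversed with array weights, at -0.47 against 0.072. The members called came to 3, to 1 without the filter on low values, to 1 after quantile normalization, to 2 in TPM and 2 by voom (Bcl2a1d and Pmaip1 in each case), to 6 with array weights, and to between 1 and 5 when 1 library was left out, with 5 without WT 2 and 1 without KO 1 or KO 2. The further pathway genes called came to 7, to 24 with array weights and to between 4 and 17 when 1 library was left out. All genes called came to 3539, to 1837 of the 8296 genes with a mean FPKM of at least 5, to 8461 with array weights and to between 1934 and 6967 when 1 library was left out, highest without WT 2 and lowest without KO 2. They came to 3613 of 28116 genes without the filter, 3982 after quantile normalization, 3360 in TPM and 3338 by voom. The share of calls that were higher in KO was 49.6%, 67.8% in TPM and 60.2% by voom. The log2 ratio of anti-apoptotic to pro-apoptotic sums stayed between -0.71 and -0.32 when 1 library was left out. Median-of-ratios scaling gave the same 3539 calls by construction. Where a value moved under weights, scaling or a left-out library, the cause was not tested. Depth limits Bcl2a1b, Bcl2a1d and Pmaip1 in KO, which rest on 0, 1 and 15 reads.

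With the replicate number as a block, 2676 genes, 2 members (Mcl1 no longer passed) and 4 further pathway genes were called. Nothing in the labels ties the numbers to a shared batch. Deviations from the group means correlated at 0.095, 0.10 and -0.15 between samples of the same number. These values cannot decide whether samples were paired, since deviations within a group sum to 0 and WT 2 stood apart.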
